A study of Homo sapiens with 6 samples.

Results

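The LCOR locus described here is a window on the plus strand of human chromosome 10, from 98592000 to 98750000 in hg19, that takes in most of the gene LCOR and most of a dense run of binding sites at its 3′ end. Its members are the sites of 6 PAR-CLIP libraries whose midpoint falls in that window on that strand, 613 of the 464799 sites listed in all. The window was selected on measured values, the density of sites in the library of wild-type FMR1 isoform 1, where the part between 98700001 and 98750000 ranked 3 among 11524 strand-specific windows of 50 kb with a site. That library's number of sites, and every ratio that uses it, is therefore a description and supports nothing.

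PAR-CLIP marks the places where a protein touches RNA in living cells. Cells incorporate a photoreactive nucleoside into new RNA, long-wave ultraviolet light crosslinks it to a protein in contact, and the RNA recovered by precipitating that protein is sequenced. The proteins studied were FMR1, which is lost in fragile X syndrome, and its paralogs FXR1 and FXR2. All are RNA-binding proteins with KH domains that associate with ribosomes and messenger RNAs. I304N replaces an isoleucine by an asparagine within a KH domain of FMR1, and is known from a patient and known to impair association with polyribosomes. LCOR encodes a ligand-dependent nuclear receptor corepressor, a nuclear protein that recruits CtBP proteins and histone deacetylases. The locus has alternative last exons, and messages that run into the more distant one encode a longer protein known as an accessory factor of the Polycomb complex that methylates histone H3.

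The groups were FLAG-HA-tagged I304N FMR1 isoform 1, I304N FMR1 isoform 7, FXR1, FXR2, wild-type FMR1 isoform 7 and wild-type FMR1 isoform 1, with 1 library each. All were stable FlpIn T-REx lines of HEK293, a human embryonic kidney cell line, and each transgene was switched on for 16 h by 1 µg/ml doxycycline, with 4-thiouridine present at 100 µM. Crosslinking used light of 365 nm and a dose of 0.15 J per square cm. RNase T1 then trimmed the RNA in the lysate (15 min, 22 °C) before precipitation through the FLAG tag. The bound protein was thus an induced, tagged transgene, and the labels do not describe a change to the cells' own FMR1, FXR1 and FXR2 genes. The deposited lists give positions and a repeat flag and no reads, so each value below counts sites. The number of sites depends on sequencing depth, on the site caller, on the level of the RNA and on binding, which cannot be told apart here. With 1 library per group no test was possible. All intervals are exact at 95% and cover counting error only.

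The sites followed the layout of the LCOR gene on the plus strand. No library had a site on the opposite strand of the window, or a plus-strand site in the 100 kb before it. Sites of any library closer than 1000 nt were joined, which gave 9 stretches. The 5 stretches with the most sites held 604 of the 613 sites. They lay at chr10:98667033-98667488 with 6 sites, chr10:98708784-98709040 with 16 sites, chr10:98711888-98711944 with 6 sites, chr10:98714743-98723765 with 132 sites, and chr10:98740590-98749999 with 444 sites. The last pair, called the upstream and the downstream stretch from here on, were 9023 nt and 9410 nt long inside the window and stood 16824 nt apart.

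LCOR (ENSG00000196233.13 in GENCODE 29, plus strand, 163678 nt long, 9 transcripts) was annotated on another build, GRCh38, so lengths and spacings were set side by side and no coordinate was converted. The starts of the last 4 stretches were spaced 3104, 2855 and 25847 nt apart in hg19. The corresponding exon starts of the transcripts LCOR-204 and LCOR-205 were spaced 3095, 2850 and 25840 nt apart in GRCh38. Each spacing differed by no more than 9 nt. By this layout the upstream stretch matched the last exon of LCOR-204, of 9489 nt with 967 coding nt, and the downstream stretch matched the last exon of LCOR-205, of 15167 nt with 4339 coding nt. These are alternative last exons, and most of each is 3′ untranslated region. Which single sites fell in coding sequence and which in the untranslated region was not analysed here.

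The 3′ edge of the window cut through the downstream stretch. The last site inside, of the I304N isoform 1 library, lay at chr10:98749966-98749988, and the first outside, of the wild-type isoform 1 library, lay at chr10:98749989-98750019. Followed to its end at 98755616, the stretch was 15027 nt long and held 648 sites. Past the edge lay 39 sites of I304N isoform 1, 41 of I304N isoform 7, 5 of FXR1, 16 of FXR2, 31 of wild-type isoform 7 and 72 of wild-type isoform 1. In the 100 kb after the window, no library had a plus-strand site outside that stretch.

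Every library had sites in the locus. There were 129 sites (Poisson interval 108 to 153) in I304N isoform 1, 110 (90.4 to 133) in I304N isoform 7, and 23 (14.6 to 34.5) in FXR1. FXR2 had 61 sites (46.7 to 78.4), wild-type isoform 7 had 82 (65.2 to 102), and wild-type isoform 1 had 208 (181 to 238). The lists themselves differed in length, with 132219 sites for I304N isoform 1, 88644 for I304N isoform 7, 9017 for FXR1, 34521 for FXR2, 78495 for wild-type isoform 7 and 121903 for wild-type isoform 1. The order by share of the list was therefore not the order by number.

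The locus took 0.0976% of the I304N isoform 1 list (0.0815 to 0.116), 0.124% of the I304N isoform 7 list (0.102 to 0.150) and 0.255% of the FXR1 list (0.162 to 0.382). It took 0.177% of the FXR2 list (0.135 to 0.227), 0.104% of the wild-type isoform 7 list (0.0831 to 0.130) and 0.171% of the wild-type isoform 1 list (0.148 to 0.195). Ordered by share, FXR1 was highest and I304N isoform 1 lowest, and neighbours in that order had overlapping intervals.

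**Figure D1:**
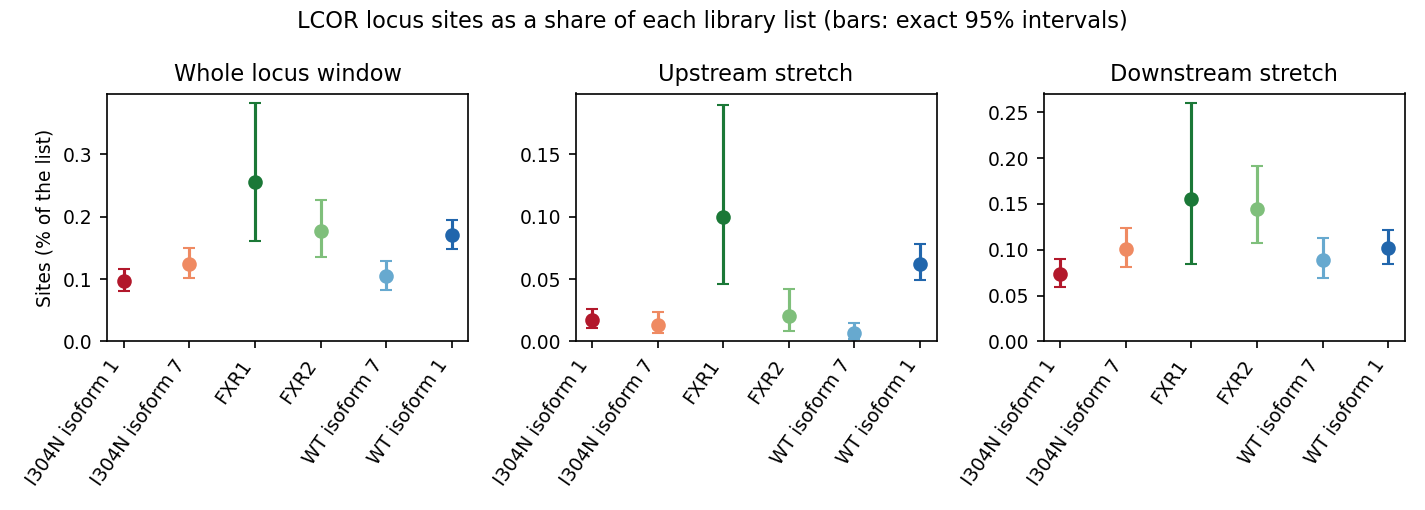
Sites in the whole LCOR window (left), in its upstream stretch (middle) and in its downstream stretch (right), as a percentage of each library's list; points are single libraries, bars are exact 95% intervals for counting error only, and each panel has its own scale from 0. The upstream panel has FXR1 (0.0998%) and wild-type isoform 1 (0.0623%) at the top and wild-type isoform 7 (0.00637%) at the bottom, while the downstream values lie between 0.0734% and 0.155%.

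The downstream stretch held most of the locus sites in each of the 6 libraries. It had 97 sites in I304N isoform 1, 89 in I304N isoform 7, 14 in FXR1, 50 in FXR2 and 70 in wild-type isoform 7, with 124 in wild-type isoform 1. Inside the window these sites covered 33.3% of its length in I304N isoform 1, 30.9% in I304N isoform 7, 3.03% in FXR1, 11.3% in FXR2 and 21.6% in wild-type isoform 7, with 56.8% in wild-type isoform 1. Followed to its end, the downstream stretch ranked high among all stretches by number of sites, a measure that grows with length. It ranked 1 of 38696 stretches with a site in I304N isoform 1, 2 of 25548 in I304N isoform 7, 17 of 4715 in FXR1, 8 of 13534 in FXR2 and 5 of 31513 in wild-type isoform 7, with 2 of 28531 in wild-type isoform 1.

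The upstream stretch was used unevenly. It had 23 sites in I304N isoform 1, 12 in I304N isoform 7, 9 in FXR1, 7 in FXR2 and 5 in wild-type isoform 7, with 76 in wild-type isoform 1. Wild-type isoform 1 thus had more sites there than the other 5 libraries had together, 76 against 56. By number of sites the stretch ranked 714 in I304N isoform 1, 1342 in I304N isoform 7, 117 in FXR1, 859 in FXR2 and 2554 in wild-type isoform 7, with 75 in wild-type isoform 1. Comparisons of the 2 stretches were chosen after the data had been seen.

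As a share of each library's own locus sites, which needs no scaling between lists, the upstream stretch was highest in FXR1 and wild-type isoform 1. The upstream share was 17.8% in I304N isoform 1 (11.7 to 25.5), 10.9% in I304N isoform 7 (5.77 to 18.3) and 39.1% in FXR1 (19.7 to 61.5). It was 11.5% in FXR2 (4.74 to 22.2), 6.10% in wild-type isoform 7 (2.01 to 13.7) and 36.5% in wild-type isoform 1 (29.99 to 43.5). The interval of wild-type isoform 1 lay above those of all libraries but FXR1, whose 23 sites left a wide interval that also overlapped those of I304N isoform 1 and FXR2.

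**Figure D2:**
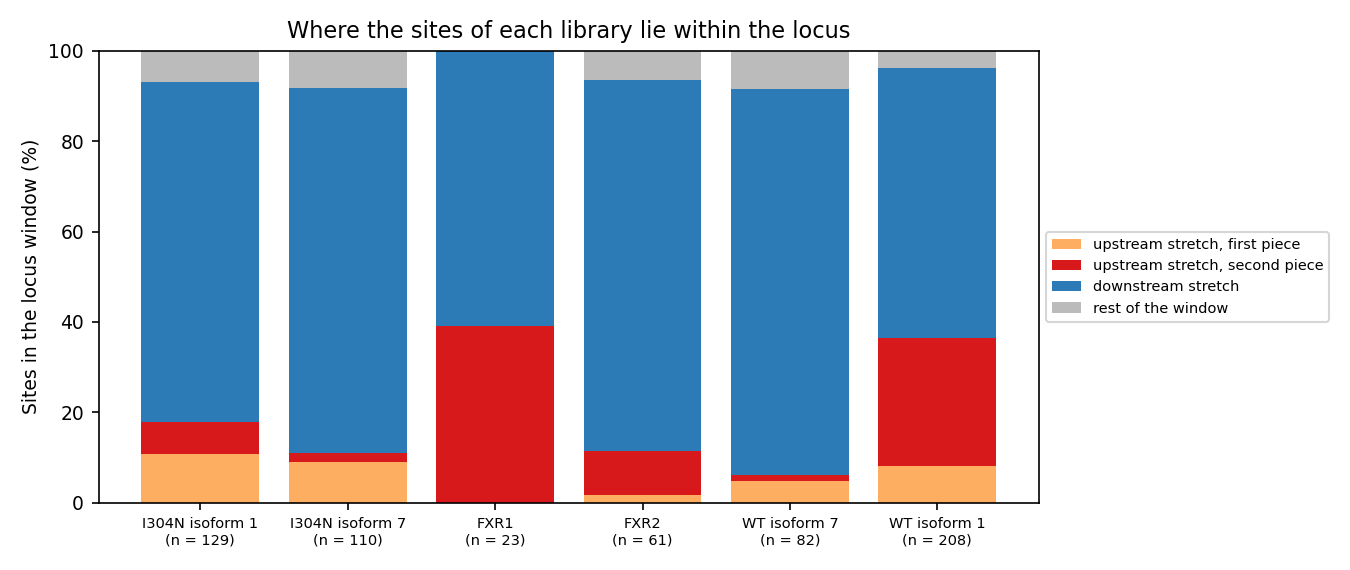
Share of each library's LCOR window sites (y axis, percent; number of sites under each bar) in the first and second piece of the upstream stretch, in the downstream stretch and in the rest of the window, 1 library per bar. The second piece takes 39.1% of the FXR1 sites and 28.4% of the wild-type isoform 1 sites, and 9.84% or less in each other library.

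In numbers of sites, the gap between wild-type isoform 1 and the other libraries was widest in the second piece of the upstream stretch. With a joining distance of 500 nt the stretch split into a first piece at chr10:98714743-98716495 and a second at chr10:98717041-98723765, with 545 nt between them. In the first piece, I304N isoform 1 had 14 sites, I304N isoform 7 had 10, FXR1 had 0, FXR2 had 1, wild-type isoform 7 had 4 and wild-type isoform 1 had 17. In the second piece the numbers were 9 in I304N isoform 1, 2 in I304N isoform 7, 9 in FXR1, 6 in FXR2 and 1 in wild-type isoform 7, with 59 in wild-type isoform 1. Wild-type isoform 1 sites covered 26.3% of the second piece, and those of the other libraries covered from 0.416% to 3.27%. All 9 upstream sites of FXR1 lay in the second piece. A count of 0 in the first still allows 0.0333% of the FXR1 list by a floor of 3 counts, or 0.0409% by the exact interval.

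**Figure D3:**
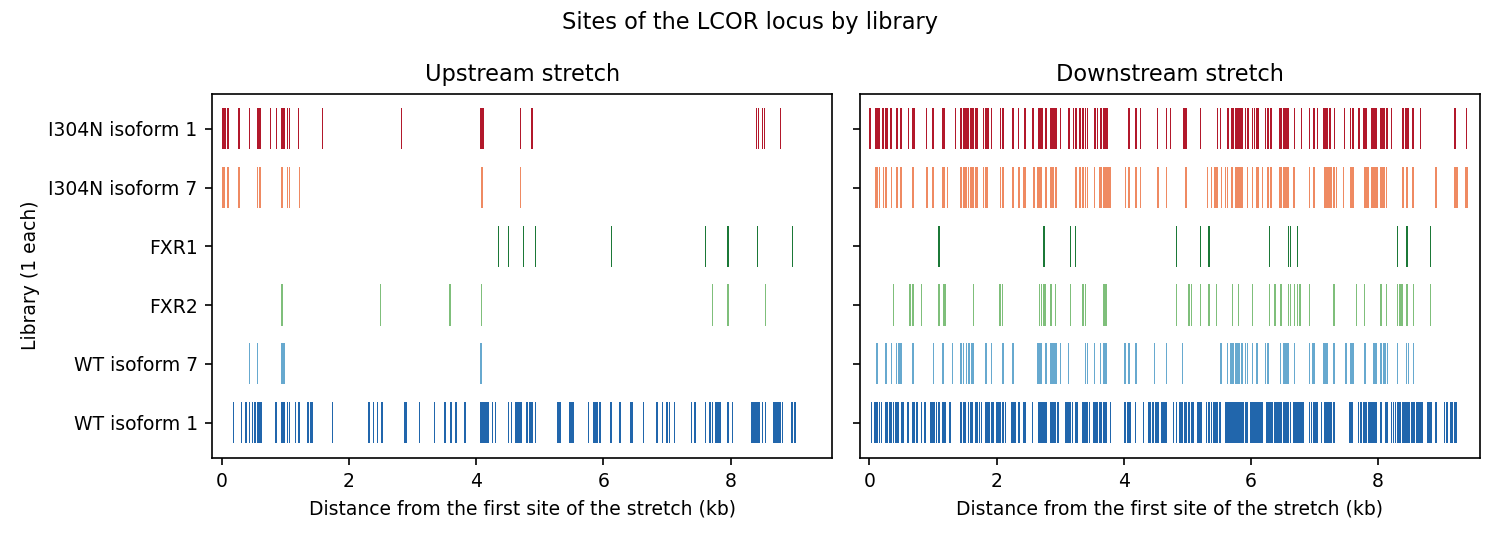
Every site of the upstream (left) and downstream (right) stretch, drawn to scale by its distance in kb from the first site of the stretch, with 1 row per library; the narrowest sites are slightly widened so that they can be seen. On the left, wild-type isoform 1 sites run along the whole stretch while those of both I304N libraries and wild-type isoform 7 gather in the first piece, where they have 14, 10 and 4 of their sites; on the right the 4 FMR1 libraries and FXR2 have sites along most of the length, and the 14 FXR1 sites leave wider gaps.

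In isoform 1, the I304N library had fewer locus sites per list than the wild type, and the gap was widest upstream. The ratio of list shares, I304N over wild type, was 0.572 (0.455 to 0.716) for the locus, 0.279 (0.167 to 0.450) for the upstream stretch and 0.721 (0.547 to 0.948) for the downstream stretch. In the second piece it was 0.141 (0.0613 to 0.285), and in the first piece 0.759 (0.347 to 1.64). Among 50 kb windows in this comparison, 50.3% were at least 2-fold apart in either direction, on counts scaled to 100000 sites with a pseudocount of 1, and the locus window at a log2 ratio of -0.82 was not. Of all stretches tested, 21.7% were at least 2-fold lower in I304N isoform 1, the upstream stretch among them at -1.78 and the downstream stretch, followed to its end, not, at -0.64. The median stretch stood at -0.08, and 9.25% of 9321 stretches were at or below the upstream one.

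The level of these ratios depended on the scaling. Median-of-ratios scaling, over windows with sites in all 6 libraries, moved every log2 ratio of list shares in this comparison up by 0.64. The ratios of all other stretches moved by the same factor. The scaling put the locus at 0.889, the upstream stretch at 0.434 and the downstream stretch at 1.12, on the other side of 1. The number of upstream sites per downstream site, which does not depend on scaling, was 0.387 times that of the wild type in I304N isoform 1 (0.216 to 0.679), and 0.436 times (0.249 to 0.746) with the downstream stretch followed to its end.

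In isoform 7, a difference between the I304N and the wild-type library was not detectable with these numbers of sites. The ratio, I304N over wild type, was 1.19 (0.884 to 1.60) for the locus, 2.13 (0.697 to 7.70) for the upstream stretch with 12 against 5 sites, and 1.13 (0.814 to 1.56) for the downstream stretch. Here 41.5% of windows were at least 2-fold apart in either direction and the locus window, at a log2 ratio of 0.25, was not. With the pseudocount the upstream stretch stood at 0.98, just short of the 20.2% of stretches at least 2-fold higher in I304N isoform 7. Upstream sites per downstream site were 1.89 times those of the wild type (0.583 to 7.15).

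Between the wild-type isoforms the upstream stretch showed the widest gap of the 3 comparisons with wild-type isoform 1 in which it was lower. Isoform 7 had 5 sites and isoform 1 had 76, a ratio of list shares of 0.102 (0.0323 to 0.249). In the second piece, with 1 site against 59, it was 0.0263 (0.000655 to 0.152). In the first piece, with 4 sites against 17, it was 0.365 (0.0895 to 1.12), with 1 inside the interval. The downstream ratio was 0.877 (0.644 to 1.18) and that of the whole locus 0.612 (0.468 to 0.794). Of 50 kb windows, 43.7% were at least 2-fold apart in either direction, not including the locus window at a log2 ratio of -0.73. Of stretches, 21.1% were at least 2-fold lower in isoform 7, the upstream stretch among them at -3.10. At or below it were 1.501% of 9459 stretches, and the median was 0.14. That place among stretches carries the choice of the window by its density in wild-type isoform 1, and is a description only. Median-of-ratios scaling moved these log2 ratios up by 0.60, to ratios of 0.926 for the locus, 0.154 upstream and 1.33 downstream. Upstream sites per downstream site were 0.117 times those of isoform 1 (0.0353 to 0.305).

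**Figure D4:**
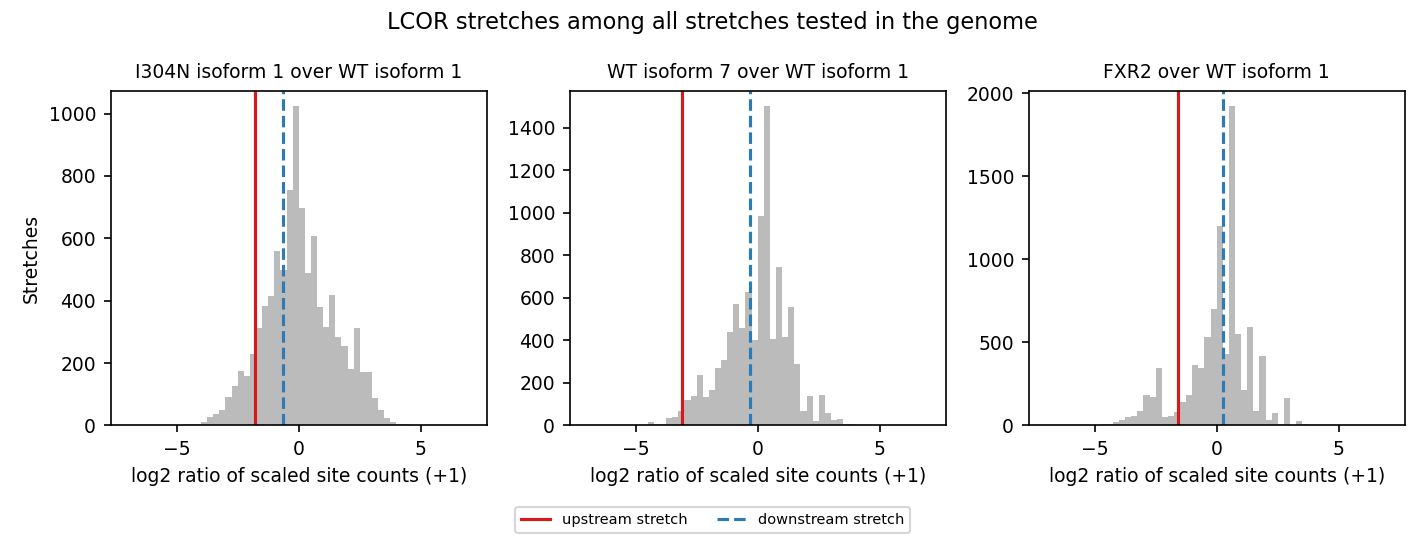
Histograms of the log2 ratio of scaled site counts (x axis, pseudocount of 1 added) over all stretches tested (y axis, number of stretches) for I304N isoform 1, wild-type isoform 7 and FXR2, each over wild-type isoform 1, with lines at the LCOR upstream stretch (red, solid) and the downstream stretch to its end (blue, dashed). The upstream stretch lies at -1.78, -3.10 and -1.57 and the downstream one at -0.64, -0.32 and 0.25; all 3 panels share the wild-type isoform 1 library.

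Between the I304N forms, a difference was not detectable upstream, and isoform 7 had the larger share downstream. Isoform 7 over isoform 1 gave 1.27 (0.977 to 1.65) for the locus, 0.778 (0.353 to 1.63) upstream, where there were 12 sites against 23, and 1.37 (1.01 to 1.84) downstream. In this comparison 21.8% of windows were at least 2-fold apart in either direction and 7.97% of stretches were at least 2-fold lower in I304N isoform 7. The locus window at a log2 ratio of 0.34 and the upstream stretch at -0.34 were not among them. The downstream stretch, followed to its end, stood at 0.51 and so short of 2-fold. Of 10720 stretches, 76.1% were at or below it, and the median was 0.12. All 12 upstream sites of I304N isoform 7 overlapped a site of I304N isoform 1 (73.5% to 100%), against 75.9% of the whole list, which lies inside that interval.

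FXR1 took a larger share of its list from the locus than wild-type FMR1 isoform 7 did, and from the upstream stretch in particular. FXR1 over wild-type isoform 7 gave 2.44 (1.47 to 3.92) for the locus, 15.7 (4.72 to 59.5) upstream with 9 against 5 sites, and 1.74 (0.906 to 3.12) downstream. FXR1 over wild-type isoform 1 gave 1.49 (0.927 to 2.30) for the locus, 1.60 (0.705 to 3.20) upstream and 1.53 (0.811 to 2.66) downstream, each with 1 inside the interval. One FXR1 site was worth 11.1 scaled sites, so that single sites passed 2-fold easily. Against isoform 7, 85% of windows were at least 2-fold apart in either direction, the locus window among them at a log2 ratio of 1.33, and 50.7% of stretches were at least 2-fold higher in FXR1, the upstream stretch among them at 3.77. Against isoform 1 these shares were 78% of windows and 44.9% of stretches, with the locus window at 0.61 and the upstream stretch at 0.67 and so not among them.

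Median-of-ratios scaling moved the log2 ratios of FXR1 over wild-type isoform 7 down by 1.03, to ratios of 1.20 for the locus, 7.68 upstream and 0.853 downstream. Upstream sites per downstream site in FXR1 were 9 times those of wild-type isoform 7 (2.24 to 38.6) and 1.05 times those of wild-type isoform 1 (0.381 to 2.75). These comparisons share the FXR1 library.

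FXR2 had few upstream sites beside its downstream ones, as did I304N isoform 7 and wild-type isoform 7. FXR2 over wild-type isoform 1 gave 1.04 (0.765 to 1.38) for the locus, 0.325 (0.126 to 0.703) upstream with 7 against 76 sites, and 1.42 (1.00 to 1.99) downstream, which fell to 0.995 when nucleotides were counted in place of sites. FXR2 over wild-type isoform 7 gave 1.69 (1.19 to 2.39) for the locus, 3.18 (0.870 to 12.7) upstream and 1.62 (1.11 to 2.37) downstream. With median-of-ratios scaling the last 3 became 1.05, 1.97 and 1.00.

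Against isoform 1, 37.3% of windows were at least 2-fold apart in either direction and 16.2% of stretches were at least 2-fold lower in FXR2. The locus window stood at a log2 ratio of 0.08, and the upstream stretch was among the lower ones at -1.57, with 12.5% of stretches at or below it. Against isoform 7, 44.1% of windows were at least 2-fold apart in either direction, not including the locus window at 0.81. There 22.4% of stretches were at least 2-fold higher in FXR2, with the upstream stretch among them at 1.53. The downstream stretch, followed to its end, was near the middle of all stretches in both comparisons. It stood at 0.57 against isoform 7, where the median was 0.54, and at 0.25 against isoform 1, where the median was 0.22.

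Between the paralogs, the upstream stretch took the larger share of the FXR1 list, by few sites. FXR1 over FXR2 gave 4.92 (1.63 to 15.6) upstream, with 9 against 7 sites in lists of unequal length, 1.07 (0.547 to 1.97) downstream and 1.44 (0.853 to 2.37) for the locus. In this comparison 71.9% of windows were at least 2-fold apart in either direction, not including the locus window at a log2 ratio of 0.53, and 39.6% of stretches were at least 2-fold higher in FXR1, the upstream stretch among them at 2.24. Of 7349 stretches, 81.7% were at or below it, so many stretches had as high a ratio in these libraries. FXR1 had 4.59 times as many upstream sites per downstream site as FXR2 (1.24 to 17.1).

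Sites shared between libraries were counted as overlaps of at least 1 nt on the same strand. The share of FXR1 sites that overlapped FXR2 differed between the stretches. Of FXR1 sites, 1 of 9 upstream and 13 of 14 downstream overlapped an FXR2 site, against 74.4% of the whole FXR1 list. Of the 14 shared FXR1 sites in the locus, 7 had exactly the ends of an FXR2 site. Of FXR1 sites, 7 of 9 upstream and 14 of 14 downstream overlapped a wild-type isoform 1 site, against 70.0% of the list. Both paralogs thus had sites in the second piece, mostly at different positions.

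Locus sites of the other libraries overlapped wild-type isoform 1 more often than their lists did. The shares were 81.4% in I304N isoform 1 against 41.7% of its list, 83.6% in I304N isoform 7 against 42.6%, 91.8% in FXR2 against 64.4%, and 90.2% in wild-type isoform 7 against 48.5%. These shares carry the choice of the window, since sites of wild-type isoform 1 are dense there. In the reverse direction the second piece stood below the list for 4 of the other 5 libraries and above it for FXR1. Of its 59 sites of wild-type isoform 1, 7 were shared with I304N isoform 1 (11.9%, against 44.6% of the list), 2 with I304N isoform 7 (3.39% against 30.4%) and 1 with wild-type isoform 7 (1.69% against 29.3%). With FXR1, 7 were shared (11.9%, interval 4.91 to 22.9, against 4.90% of the list), and with FXR2, 5 (8.47%, interval 2.81 to 18.7, against 16.7%). Downstream, 75 of 124 were shared with I304N isoform 1, or 60.5% (51.3 to 69.1) against 44.6% of the list. Within isoform 7, 56.4% of I304N locus sites overlapped a wild-type site, against 41.9% of the list.

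**Figure D5:**
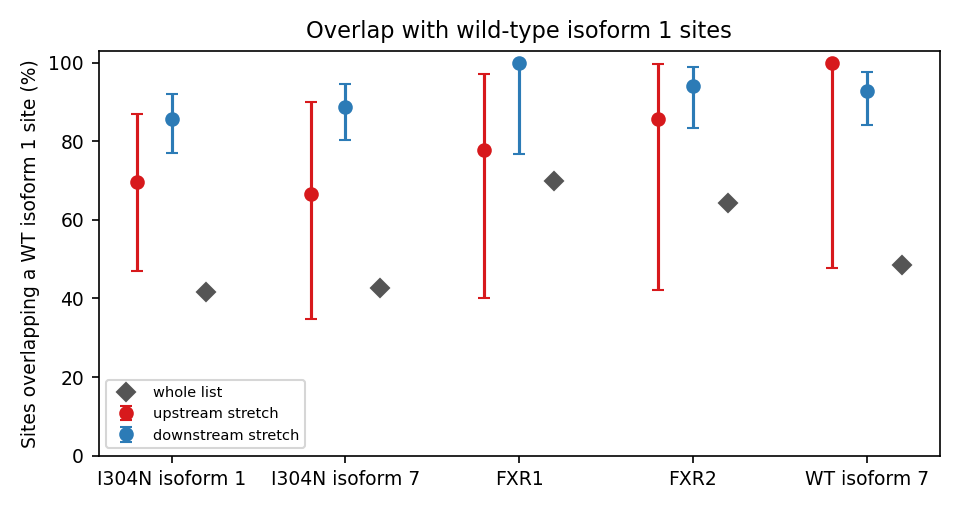
Share of the sites of each library (x axis) that overlapped a wild-type isoform 1 site (y axis, percent) in the upstream stretch (red), in the downstream stretch (blue) and over the whole list (grey diamonds), 1 library each, with exact 95% intervals for counting error. Downstream shares lie between 85.6% and 100% and above the whole-list shares of 41.7% to 70.0%, while upstream shares rest on 5 to 23 sites and have wide intervals.

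Touching sites of any library were joined into 230 merged regions. Of these, 106 were held by 1 library, 39 by 2, 23 by 3, 35 by 4, 23 by 5 and 4 by all 6. Over the whole lists there were 237434 such regions, and 55.3% of them, against 46.1% in the locus, were held by 1 library. Wild-type isoform 1 alone held 85, or 37.0% against 21.8% over the lists, a share that carries the choice of the window. These were 44 of 63 regions in the second upstream piece, 9 of 23 in the first, 31 of 131 downstream and 1 of 13 in the rest of the window. All 4 FMR1 libraries shared 53 regions, of which 46 were downstream and 1 in the second piece. That is 23.0% of the locus regions, against 9.13% over the lists. Both I304N libraries without either wild type held 13 regions (5.65% against 8.31% over the lists), and both wild types without either I304N library held 1 (0.435% against 1.89%). Locus regions were joined from sites inside the window only. The last of the 13, at chr10:98749963-98749999, overlapped a wild-type isoform 1 site just past the edge, at chr10:98749989-98750019, and so counted as without wild type only because of the edge. FXR1 or FXR2 held 5 regions without any FMR1 library (2.17% against 4.03%). The more frequent pattern of both I304N libraries without either wild type was thus that of the whole lists too.

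The 4 regions held by all libraries, 1.74% of the locus regions against 0.607% over the lists, were in the downstream stretch, at chr10:98743323-98743379, chr10:98746807-98746933, chr10:98747090-98747192 and chr10:98748999-98749086, with 7, 10, 6 and 7 sites. The region with the most sites lay at chr10:98746179-98746475. It had 4 sites of I304N isoform 1, 4 of I304N isoform 7, 0 of FXR1, 2 of FXR2, 5 of wild-type isoform 7 and 3 of wild-type isoform 1. Next were chr10:98743426-98743568 with 12 sites, chr10:98748349-98748583 with 11 and chr10:98746578-98746783 with 10, each held by all libraries but FXR1.

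The densest 1 kb bin lay downstream in all libraries except FXR1. It was chr10:98746000-98746999 in I304N isoform 1 with 14 sites and in wild-type isoform 7 with 13. In wild-type isoform 1 it was chr10:98742000-98742999 with 19 sites, which was also the first of 2 bins with 13 sites in I304N isoform 7, and in FXR2 it was chr10:98743000-98743999 with 9 sites. In FXR1 it was chr10:98719000-98719999 with 4 sites, in the second piece of the upstream stretch. The fullest downstream bins of FXR1 had 3 sites each, so this exception rests on a single site.

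The 5′ part of the locus was nearly empty. Outside both long stretches there were 9 sites in I304N isoform 1, 9 in I304N isoform 7, 0 in FXR1, 4 in FXR2 and 7 in wild-type isoform 7, with 8 in wild-type isoform 1. The stretch at chr10:98708784-98709040, whose place matched an internal LCOR exon of 288 nt, held 16 of these 37 sites. Its numbers were 4 in I304N isoform 1, 4 in I304N isoform 7, 0 in FXR1, 2 in FXR2 and 3 in wild-type isoform 7, with 3 in wild-type isoform 1. The 4 FMR1 libraries thus had 3 or 4 sites each in this stretch, beside 5 to 76 in the upstream stretch.

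Sites in the locus were as wide as or wider than usual. Median widths were 25 nt in I304N isoform 1 against 23 nt over its list, 28 against 24 nt in I304N isoform 7, 20 against 20 nt in FXR1, 21 against 20 nt in FXR2 and 24.5 against 21 nt in wild-type isoform 7, with 29 against 24 nt in wild-type isoform 1. Sites of at least 60 nt numbered 10 in I304N isoform 1, 7 in I304N isoform 7, 0 in FXR1, 0 in FXR2 and 6 in wild-type isoform 7, with 28 in wild-type isoform 1. The widest, of 206 nt, was a downstream site of wild-type isoform 1. As a share of locus sites against the list, this was 7.75% against 4.85% in I304N isoform 1, 6.36% against 4.90% in I304N isoform 7, 7.32% against 1.51% in wild-type isoform 7 and 13.5% against 6.35% in wild-type isoform 1. In dense runs, sites joined or split by the caller change the number counted, and the part of this in the differences above was not tested.

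The authors' repeat flag was set for a larger share of locus sites than of the list in the 4 FMR1 libraries. There were 9 in I304N isoform 1, 7 in I304N isoform 7, 0 of 23 in FXR1 (interval up to 14.8%), 2 in FXR2 and 5 in wild-type isoform 7, with 21 in wild-type isoform 1. The shares were 6.98% (3.24 to 12.8) against 3.03% of the list in I304N isoform 1 and 6.36% (2.60 to 12.7) against 3.48% in I304N isoform 7. They were 3.28% (0.400 to 11.3) against 3.91% in FXR2, 6.10% (2.01 to 13.7) against 4.51% in wild-type isoform 7 and 10.1% (6.36 to 15.0) against 5.35% in wild-type isoform 1. For I304N isoform 1 and wild-type isoform 1 the list share lay below the interval. Of these 44 sites, 38 lay in a block at chr10:98748137-98749300, which is the span from the first to the last flagged downstream site. The sites at both its ends were of wild-type isoform 1, so the shares within it depend partly on how it was drawn. Within that block the flag was set for 8 of 15 sites of I304N isoform 1, 6 of 11 of I304N isoform 7, 0 of 2 of FXR1, 2 of 9 of FXR2, 5 of 12 of wild-type isoform 7 and 17 of 17 of wild-type isoform 1. Overlapping sites from different libraries carried unlike flags in 31 of 751 pairs in the locus, or 4.13% (2.82 to 5.81), and in 1.27% of 382115 pairs over the whole lists.

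Other windows had a similar profile over the 6 libraries. The LCOR window between 98700001 and 98750000 had 125 sites in I304N isoform 1, 106 in I304N isoform 7, 23 in FXR1, 61 in FXR2 and 79 in wild-type isoform 7, with 204 in wild-type isoform 1. Its ranks in these libraries, in the same order, were 7, 14, 16, 18, 40 and 3. The nearest by Euclidean distance of log2 scaled counts over the 6 libraries were chr19:57800001-57850000 on the plus strand at 0.599 and chr13:23900001-23950000 on the minus strand at 0.614. Then came chr1:214800001-214850000 on the plus strand at 0.716, chr10:129900001-129950000 on the minus strand at 1.09 and chr4:187500001-187550000 on the minus strand at 1.12. The first of these, with 138, 120, 33, 65, 80 and 230 sites in the same order of libraries, was also the densest window of wild-type isoform 1. As a scale, the densest window of both I304N libraries and of wild-type isoform 7, chr12:49400001-49450000 on the minus strand, had 216, 224, 9, 71, 216 and 172 sites. The densest in FXR1, chr10:62550001-62600000 on the plus strand, had 49 FXR1 sites, and the densest in FXR2, chr21:34900001-34950000 on the plus strand, had 110 FXR2 sites.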

How the data were processed

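PAR-CLIP sites of 6 libraries, 1 per protein form, were grouped by the precipitated protein named in the labels. The submitters' processing notes name Bowtie 0.12.7 and the build hg19. How sites were called, with which thresholds, is not given in the sources used here. The deposited score is a flag, 1000 outside repeats and 0 in a repeat, per the file headers. Reads per site, and so sequencing depth, are unknown. List lengths, from 9017 to 132219 sites, set the precision.

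Sites were assigned to the locus by midpoint and strand. Site counts carry exact Poisson intervals, shares of sites Clopper-Pearson intervals, and ratios of shares or of upstream to downstream counts exact conditional intervals, at 95%. The labels name no molecular identifiers, so intervals and floors (3 counts) cover counting error only. For the background, counts per 50 kb window or per stretch (joining distance 1000 nt, all libraries) were scaled to 100000 sites, a pseudocount of 1 was added, and features with a mean of at least 2 over the compared pair were kept. All 9 pairs were compared, and pairs that share a library are not independent. Python 3.11.15, pandas 2.3.3, NumPy 2.4.6 and SciPy 1.17.1 were used, and the counting was tested on simulated data.

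The window, its members and the choices of what to list were made with earlier results of these data known. Positions named were the 5 stretches with the most sites, the densest 1 kb bin per library, merged regions held by all libraries or with the most sites, the 5 nearest windows and the densest window per library; the pieces of the upstream stretch, the repeat block and the window edge were chosen after their values were seen. Motifs, site sequences and exon assignment, which had been planned and need an hg19 genome, were not analysed here.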

Additional observations from a re-analysis of the deposited data

Results flagged for a closer look

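I304N over wild type pointed in opposite directions in the 2 isoforms for the whole window and for both long stretches. Over the few sites outside these stretches the ratios pointed the same way, at 1.04 in isoform 1, against 1.14 in isoform 7. For the whole window the ratio of list shares was 0.572 in isoform 1, against 1.19 in isoform 7, a ratio of ratios of 0.481. For the upstream stretch it was 0.279 in isoform 1, against 2.13 in isoform 7, a ratio of ratios of 0.131. For the downstream stretch it was 0.721 in isoform 1, against 1.13 in isoform 7, a ratio of ratios of 0.641, and with median-of-ratios scaling both of these lay above 1, at 1.12 and 1.39. No test of this difference was run, since each form had 1 library, and the isoform 7 ratios had 1 inside their intervals. The wild-type isoform 1 library, by which the window was chosen, is the denominator in isoform 1.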

How the results depend on the processing

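Of the alternative values, 238 stayed within the interval, or for counts within 1.5 times, of the value reported, and 64 lay outside. Another 2, whose reported interval left out 1, turned to the other side of 1. Ratios that crossed 1 where the reported interval held 1 were counted among the 238 or the 64. No paired analysis was possible because each protein form had 1 library and the labels pair none. With the window edges moved in by 10 kb, most of the downstream stretch was lost, and locus sites numbered 30 in I304N isoform 1, 18 in I304N isoform 7, 9 in FXR1, 11 in FXR2 and 10 in wild-type isoform 7, with 83 in wild-type isoform 1. The locus ratios then were 0.333 for I304N isoform 1 over wild type, 0.187 for wild-type isoform 7 over isoform 1, 0.895 for I304N isoform 7 over I304N isoform 1, 7.83 and 2.50 for FXR1 and FXR2 over wild-type isoform 7, 0.468 for FXR2 over wild-type isoform 1 and 3.13 for FXR1 over FXR2. With median-of-ratios scaling the locus ratios were 0.889 for I304N isoform 1 over wild type, 0.926 for wild-type isoform 7 over isoform 1, and 1.20 and 1.05 for FXR1 and FXR2 over wild-type isoform 7.

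The same scaling put the downstream ratio at 1.12 for I304N isoform 1 over wild type, in the other direction from the value reported. It put that of wild-type isoform 7 over isoform 1 at 1.33, and those of FXR1 and FXR2 over wild-type isoform 7 at 0.853 and 1.00. The 1.33 and the 0.853 also lay across 1 from the values reported, 0.877 and 1.74, which had 1 inside their intervals. Counting nucleotides turned the downstream ratio of FXR2 over wild-type isoform 1 to 0.995. The cause of these shifts was not tested. With the second piece in place of the upstream stretch, the ratios were 0.141 for I304N isoform 1 over wild type, 0.0263 for wild-type isoform 7 over isoform 1, 0.331 for I304N isoform 7 over I304N isoform 1, and 78.3 and 13.6 for FXR1 and FXR2 over wild-type isoform 7, the last pair resting on 1 wild-type site. Followed to its end, the downstream stretch took 70.0% of wild-type isoform 1 sites and the upstream one 27.1%, and by nucleotides the upstream share was 28.3%.

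Windows at least 2-fold apart with a pseudocount of 5 numbered 2240 for I304N over wild type in isoform 1 (3956 reported), 1630 in isoform 7 (3117), 1670 between the wild types (3226), 553 between the I304N forms (1731) and 1352 for FXR2 over wild-type isoform 1 (2487). Without a filter they numbered, in the same order, 6291, 12000, 10517, 4192 and 6046, and 15784 for FXR1 over wild-type isoform 7 (5779), 13550 for FXR2 over wild-type isoform 7 (3235) and 7350 for FXR1 over FXR2 (4263). A filter of 4 left 974 between the I304N forms. Counts of stretches moved between 0.221 and 5.62 times those reported.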
